A study of Mus musculus with 18 samples.

Results

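MHC class I molecules are described here at the level of the 10 genes that build and load them: the heavy chains H2-K1 and H2-D1, the light chain B2m, the peptide transporter Tap1 and Tap2, its partner Tapbp, the immunoproteasome subunits Psmb8, Psmb9 and Psmb10, and the transactivator Nlrc5. They were chosen by symbol, as 10 of the 55469 genes in each table of prostate RNA, and all 10 were read in all 18 libraries. The mice were males on the C56NL/6N background, and ventral and lateral lobes were the source of the RNA, with 3 libraries in each of 6 groups. WT mice carried intact Elac2 at 10 or 30 weeks of age. KO mice of the same ages lacked exon 8 of Elac2 where Pb-Cre, a Cre under the probasin promoter of prostate epithelium, was active, so that other cells of the lobes kept the gene. A537T mice were homozygous for the Ala537Thr variant throughout the body. The 3 WT libraries of an age served as controls for both lines, so the KO and A537T comparisons of an age are not independent, and the column names identify libraries (1AF to 18AF) without giving animals or replicate numbers.

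Class I molecules show peptides from inside the cell to CD8 T cells and natural killer cells. The proteasome cuts the peptides, TAP carries them into the endoplasmic reticulum, and tapasin, encoded by Tapbp, holds an empty heavy chain and light chain at the transporter until a peptide fits. Interferon raises most of these genes through factors that bind their promoters, and Nlrc5 is the transactivator that joins the factors on the heavy chain, B2m, Tap1 and Psmb9 promoters. All nucleated cells can express class I, and leukocytes express more of it than most epithelia. In RNA from whole lobes, more cells of a type and more RNA per cell cannot be told apart.

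The genes lie in 3 places on GRCm38. Within the MHC on chromosome 17 are Tapbp at chr17:33915899-33929292, H2-K1 at chr17:33996017-34000347, the run of Psmb9 (chr17:34181987-34187764), Tap1 (chr17:34187553-34197225), Psmb8 (chr17:34197721-34201454) and Tap2 (chr17:34203527-34216321), and H2-D1 at chr17:35262730-35267499. B2m lies at chr2:122147686-122153083, and Nlrc5 (chr8:94434356-94527272) and Psmb10 (chr8:105935735-105938444) lie apart on chromosome 8. RefSeq promoter windows of GRCm38.p6, 250 bases before to 50 after the start site, were at hand for 8 of the 10 genes, and Tap2 and Nlrc5 had none. The stretches just upstream of the start sites of the heavy chains and B2m are shown because Nlrc5 acts through them. The gap between Tap1 and Psmb9 is shown because their RefSeq starts lie back to back, 225 bases apart. The gene spans above are from GENCODE and reach beyond some RefSeq starts. The gap therefore lies within the Psmb9 span, and the H2-D1 stretch within the H2-D1 span. Each stretch is written 5′ to 3′ on the gene's own strand, ending at the base before the start, with Tap1's strand used for the gap. Capitals mark matches, on either strand, to the interferon-stimulated response element core (AANNGAAA), the CRE core (TGACG), the CCAAT box (CCAAT), an NF-kB site (GGGGATTCC) or the GAS element (TTCNNNGAA).
H2-K1, chr17:34000348-34000547, minus strand: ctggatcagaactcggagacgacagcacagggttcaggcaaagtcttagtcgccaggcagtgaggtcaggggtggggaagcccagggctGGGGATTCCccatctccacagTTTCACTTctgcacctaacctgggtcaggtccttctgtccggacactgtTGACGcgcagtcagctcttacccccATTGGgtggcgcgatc
H2-D1, chr17:35262894-35263093, plus strand: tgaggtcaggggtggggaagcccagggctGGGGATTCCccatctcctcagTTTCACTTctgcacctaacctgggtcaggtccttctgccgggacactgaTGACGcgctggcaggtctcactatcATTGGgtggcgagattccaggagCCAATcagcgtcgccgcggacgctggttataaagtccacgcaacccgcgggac
B2m, chr2:122147487-122147686, plus strand: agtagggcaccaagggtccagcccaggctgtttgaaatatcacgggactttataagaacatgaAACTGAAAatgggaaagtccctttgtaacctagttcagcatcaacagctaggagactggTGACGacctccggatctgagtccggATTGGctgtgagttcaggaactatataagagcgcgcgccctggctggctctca
Tap1 and Psmb9, chr17:34187331-34187555, plus strand: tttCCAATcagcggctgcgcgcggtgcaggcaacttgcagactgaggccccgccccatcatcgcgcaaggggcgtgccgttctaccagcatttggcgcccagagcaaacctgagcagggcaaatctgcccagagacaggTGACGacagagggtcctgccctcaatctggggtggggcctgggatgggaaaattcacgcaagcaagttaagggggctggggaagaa

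In the full windows of 300 bases, the H2-K1, H2-D1 and B2m promoters each held a response element core, a CRE core and a CCAAT box. The response element core was in 3 of the 8 windows (23.9% of all 32851 RefSeq windows), the CRE core in 5 (20.8%) and the CCAAT box in 6 (37.4%). The NF-kB letters were in H2-K1 and H2-D1, against 0.25% of all windows. The GAS letters were in Psmb8 alone of the 8, against 8.3% of all windows. The windows of Tap1 and Psmb9 overlap, so the CRE core and CCAAT box between them count for both genes. The Psmb10 window held none of these letters and Tapbp held a CCAAT box only. A match is a description of the letters and not a measured site.

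The libraries held 6569642 to 11225281 recovered reads (median 8586877). Elac2 itself, counted over the whole gene, had 111 to 119 normalized counts in the KO libraries and 124 to 166 in their WT controls at 10 weeks, and at 30 weeks the KO libraries had 98.4 to 151 against 149.6 to 194. A count over the whole gene does not measure the deletion of 1 exon in 1 cell type. In A537T, Elac2 overlapped WT at both ages (158 to 173 at 10 weeks and 114 to 189 at 30 weeks). The 10-week order depended on the scale. In RPM (a gene's reads scaled to a common library total) A537T, at 19.0 to 20.2, lay above WT, at 15.5 to 16.7, and KO, at 13.7 to 16.1, overlapped it. RNA of the seminal vesicle, a gland beside the prostate, was present in some libraries: 8 of its genes took 6.55% to 10.3% of reads in KO at 10 weeks and 0.000808% to 4.64% in WT at 10 weeks. At 30 weeks the secretory gene Svs2 was at 36914 to 52919 RPM in KO libraries 4AF and 6AF and A537T libraries 7AF and 9AF. It was at no more than 1.01 in KO library 5AF, A537T library 8AF and the 3 WT libraries. Skeletal muscle genes took 1.48% to 5.17% of reads in WT at 10 weeks, 0.504% to 1.56% in A537T and 0.0263% to 0.818% in KO. Pan-epithelial genes (Krt18, Cdh1, Krt8, Epcam) were present throughout, and the prostate list (led by Sbp and Pbsn) took 0.412% to 11.7% of reads. At 10 weeks its share was 0.412% to 3.302% in KO, 6.697% to 8.88% in A537T and 3.18% to 10.8% in WT. Both mutant groups overlapped WT in this share at 30 weeks. At that age 6 of 6 genes of the list were below WT in KO, and 5 of 6 in A537T. The list medians were then -0.67 and -0.73 on the log2 scale. At 10 weeks 3 of 6 were lower in each line.

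Exon lengths here merge all annotated exons of a gene, so the order between genes depends on the annotation. Measured per exon length, B2m was the most abundant of the 10, at a median of 758 RPM per kb over the 18 libraries. H2-D1 and H2-K1 followed at 87.2 and 79.0, then Tapbp at 24.3. Psmb10 (5.42), Tap2 (5.31), Tap1 (2.42), Psmb8 (2.28), Psmb9 (1.33) and Nlrc5 (1.16) were low. B2m and Nlrc5 also varied most, by 8.68-fold and 7.37-fold between the lowest and highest library, whereas Tap2 varied by 1.84-fold. Ordered by group mean in RPM, A537T at 30 weeks was highest for 8 of the 10 genes, with B2m highest in KO at 10 weeks and Tap2 highest in KO at 30 weeks. Most neighbours in these orders overlapped. The exceptions were H2-K1, where KO at 10 weeks and WT at 30 weeks did not overlap (means of 204 ± 6.67 and 276 ± 39.7, SD, n = 3), H2-D1, where KO and A537T at 30 weeks (260.0 ± 25.1 and 302 ± 6.79, SD, n = 3) were each apart from the next group below, and Nlrc5, where KO at 30 weeks (16.99 ± 3.54) was apart from KO at 10 weeks (10.3 ± 2.43, SD, n = 3). For Nlrc5 the WT library 10AF, at 17.9 RPM, lay within the range of both mutant groups at 30 weeks.

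**Figure D1:**
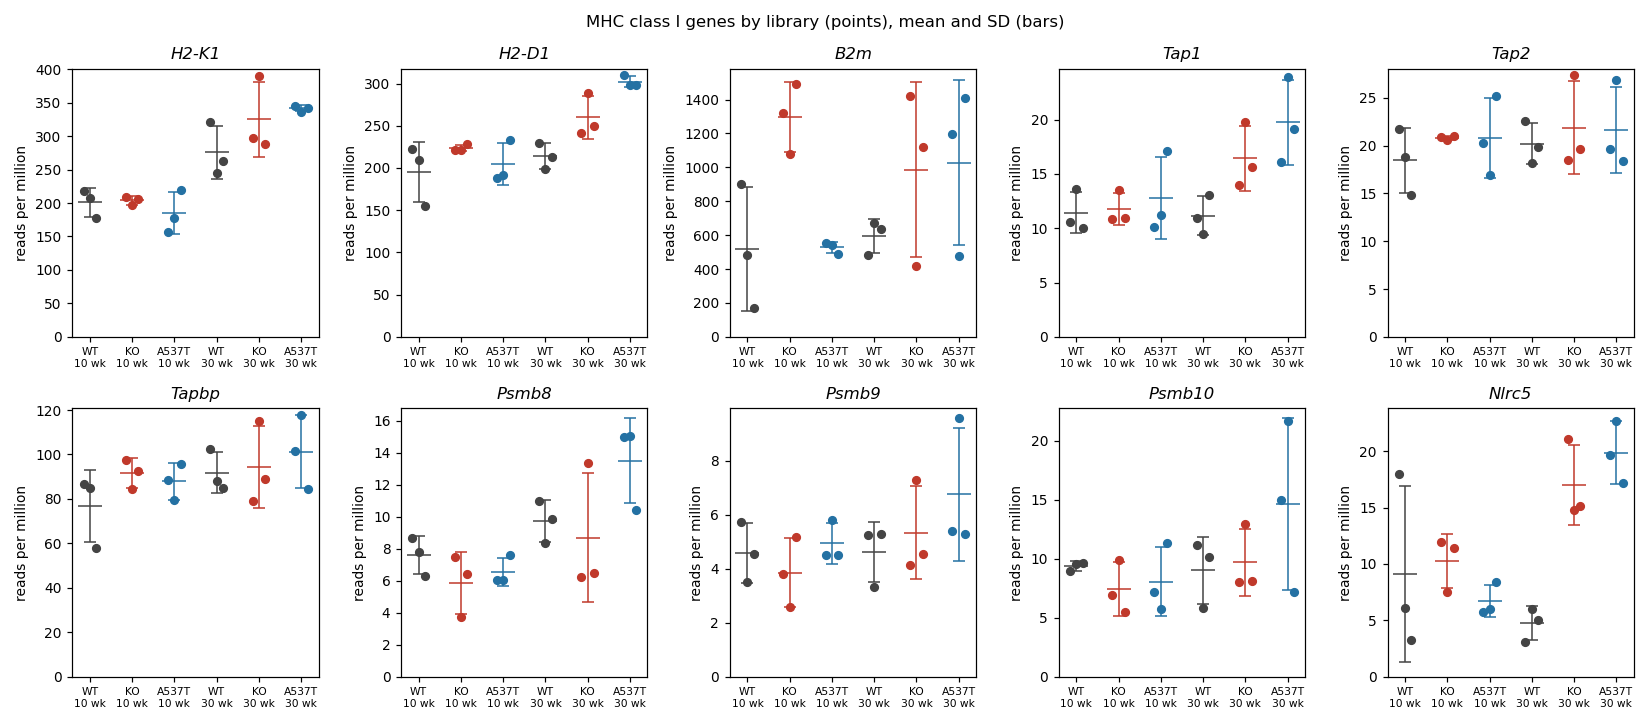
RPM (vertical axis, from 0) of each of the 10 genes in the 18 libraries, by genotype and age; points are libraries, and the bars show the group mean and SD. Nlrc5 and H2-D1 in KO and A537T at 30 weeks lie above all WT libraries of that age, while B2m splits within both of those groups.

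Each mutant was compared with WT of its age by limma on log2(normalized count + 1), where a normalized count is the deposited value, a library's estimated count already divided by its size factor. All 10 genes passed the minimum mean of 10 normalized counts in every comparison. No gene of any kind reached an adjusted p under 0.05 with limma in the 4 comparisons or in the 2 tests of the difference between ages (0.0% of 14292 to 15131 genes in each), so no member did. Smallest adjusted p-values over all genes were 0.183, 0.0716, 0.165 and 0.137 for KO and A537T at 10 weeks and KO and A537T at 30 weeks, and edgeR on the recovered reads also called 0 genes. In simulated tables of the same size limma recovered 80.9% to 87.5% of genes changed by 2 on the log2 scale and 16.3% to 31.2% of those changed by 1. Whether these rates hold for the deposited libraries, where the number of calls depended on single libraries, was not tested. The values below are therefore described by level, difference and overlap.

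At 30 weeks, 9 of the 10 genes were higher in KO and 10 of 10 were higher in A537T. The KO median over the members was 0.22 on the log2 scale and the A537T median 0.51, beside -0.01 over all genes tested in each comparison. Single libraries moved these values: without 5AF 6 of 10 were higher in KO and the median was 0.09, without WT library 2AF the KO figures were 8 of 10 and 0.12, and in A537T they were 9 of 10 and 0.35 without 8AF. In KO, 3 members were above WT without overlap, where 7.92% of all genes were, and 0 were below, where 8.41% were. In A537T, 5 members were above WT without overlap (9.18% of all genes) and 0 below (9.4%). At an unadjusted p under 0.05 with limma there were 3 members higher in KO (5.56% of all genes) and 4 in A537T (7.35%), and 0 lower in either (5.41% and 6.28%). At 10 weeks the medians were -0.09 in KO and -0.01 in A537T. In KO at that age 1 member was above WT without overlap (11.7% of all genes) and 2 were below (14.3%), and in A537T 0 were above (5.58%) and 2 below (6.34%). Those below, H2-K1 and Psmb8 in each line, overlapped WT in RPM. Members at an unadjusted p under 0.05 numbered 1 higher (7.97%) and 0 lower (11.5%) in KO and 0 in either direction in A537T (2.76% and 3.67%) at 10 weeks. The split of all genes at that p depended on the scaling: 1202 were higher and 1728 lower for KO at 10 weeks, but 1915 and 1050 with 1 total for all libraries, and A537T went from 418 and 555 to 610 and 393. Under that scaling 7 of 10 members were higher in each line at 10 weeks, where 3 and 5 were with the deposited values. At 30 weeks the split went from 819 and 797 to 825 and 519 for KO and from 1087 and 929 to 1233 and 594 for A537T, with 9 and 10 members still higher.

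**Figure D2:**
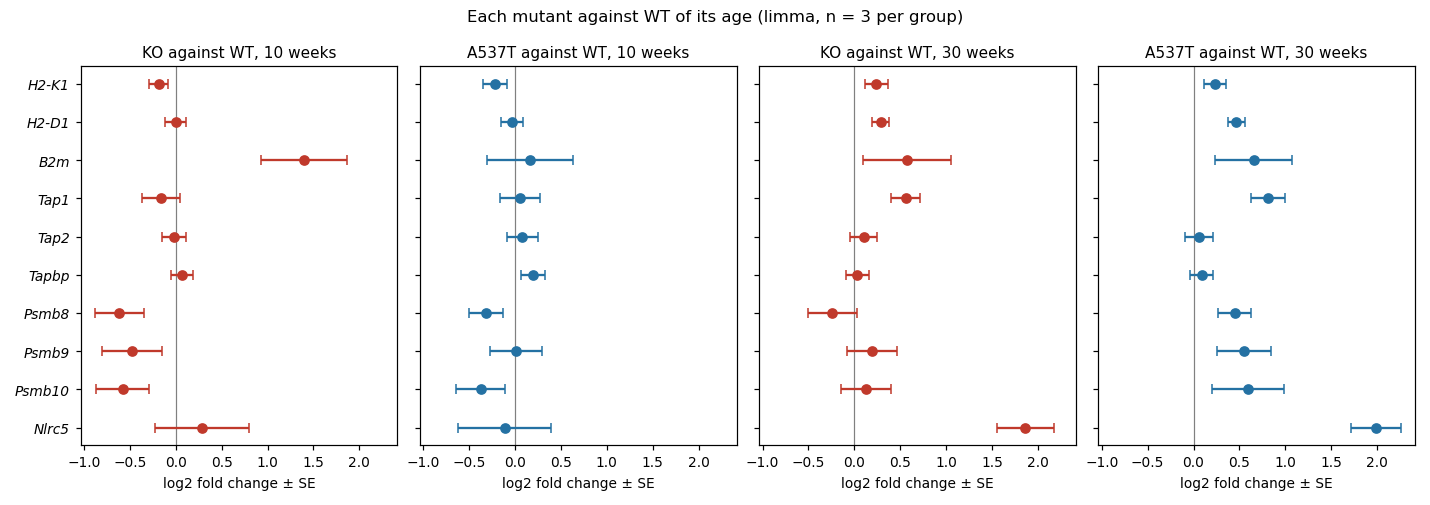
Log2 fold change (horizontal axis) of the 10 genes in each mutant against WT of its age from limma; points are estimates and bars 1 SE. At 30 weeks the points lie at or right of 0 except Psmb8 in KO, and Nlrc5 lies farthest right in both lines.

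H2-D1, 1 of the 2 classical heavy chains of this background, was the steadier of the pair across libraries. At 30 weeks its normalized counts were 2043, 1857 and 1881 in WT and 2299.9, 2379.8 and 2363 in KO. All KO libraries were above all WT libraries, by 0.29 ± 0.09 on the log2 scale (SE; limma adjusted p = 0.407). In A537T they were 2719, 2518 and 2784 beside 2051, 1863 and 1892 for WT in that table. The A537T libraries were again all above WT, by 0.47 ± 0.09 (SE; limma adjusted p = 0.210). At 10 weeks H2-D1 was 1778, 1787 and 1601 in WT and 1648, 1801 and 1711 in KO, and 1683, 1659 and 1827 in A537T. These ranges overlapped and the differences were -0.00 ± 0.11 and -0.03 ± 0.12 (SE).

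H2-K1 encodes the other classical heavy chain. At 30 weeks it was 2849, 2294 and 2311 normalized counts in WT and 2826, 3209 and 2736 in KO, a difference of 0.24 ± 0.12 (SE) with overlapping ranges. In A537T it was 3032, 2844 and 3197 against 2956, 2379 and 2404 in WT, a difference of 0.24 ± 0.12 (SE), also with overlap. This overlap depended on the scale: in RPM KO again overlapped WT, but H2-K1 in A537T was 336.7 to 345.7 against 245.2 to 320.9. At 10 weeks it was lower in both lines: 1554, 1601 and 1552 in KO against 1750.1, 1768 and 1835 in WT, and 1407, 1546 and 1721 in A537T against 1791, 1776 and 1850.3 in WT. The groups did not overlap, at -0.19 ± 0.10 and -0.22 ± 0.13 (SE; limma adjusted p = 0.349 and 0.757), but with every library scaled to the same total the KO difference was 0.03 and the A537T difference -0.08. The median of all genes at 10 weeks was then 0.20 in KO and 0.15 in A537T, where the deposited values gave -0.01 and 0.01. Within a library, the ratio of H2-D1 to H2-K1 per exon length was 0.994 to 1.16 in WT, 1.21 to 1.28 for KO and 1.21 to 1.36 for A537T at 10 weeks, and both mutant groups lay above WT. At 30 weeks it was 0.817 to 0.927 in WT, 0.845 to 0.984 for KO and 0.992 to 1.02 for A537T, so that A537T alone lay above WT. The heavy chain genes are close in sequence, and how reads were split among them by the authors' estimates is uncertain.

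B2m, the light chain shared by all class I molecules, behaved unlike the heavy chains. At 10 weeks it was 7218, 4138 and 1781 normalized counts in WT (libraries 10AF, 11AF and 12AF) and 9819.9, 8810.5 and 11209.9 in KO. Every KO library was above every WT library, by 1.40 ± 0.47 (SE; limma adjusted p = 0.200), and A537T, at 4927, 4709.6 and 3831, lay within the WT range of its table. The WT order was also that of Svs2, at 29809, 9211 and 3.15 RPM in 10AF, 11AF and 12AF, and the KO libraries held 38808 to 61691. At 30 weeks B2m was 4274, 6262 and 5589.6 in WT, and in KO it was 13522 in 4AF, 3445 in 5AF and 10621 in 6AF. In A537T it was 10508 in 7AF, 4045 in 8AF and 13129 in 9AF. The 4 highest of these libraries are the 4 with seminal vesicle RNA, and 5AF and 8AF, which lack it, were below the lowest WT library. The log2 differences were 0.58 ± 0.48 in KO and 0.65 ± 0.42 in A537T (SE; limma adjusted p = 0.674 and 0.504). With the seminal vesicle score as a covariate they were -0.50 and -0.26, and at 10 weeks the KO difference was 0.60. No WT library at 30 weeks held seminal vesicle RNA, so the adjusted values of that age rest mainly on 5AF and 8AF. Without 5AF the KO difference at 30 weeks was 1.17 (limma adjusted p = 0.0186, in a fit that called 6.41% of all genes) and without 8AF the A537T difference was 1.17 (adjusted p = 0.0156, 8.27% of all genes called). Without WT library 10AF the KO difference at 10 weeks was 1.87 (adjusted p = 0.0247, 19.2% of all genes called).

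The ratio of B2m to the summed heavy chains, per exon length, followed the same libraries. It was 8.48 and 6.68 in 4AF and 6AF, 5.86 and 7.04 in 7AF and 9AF, 1.99 in 5AF, 2.42 in 8AF and 2.82 to 4.85 in WT at 30 weeks. At 10 weeks it was 8.24 to 10.9 in KO, 3.44 to 5.06 in A537T, and 6.53, 3.72 and 1.66 in 10AF, 11AF and 12AF. H2-D1 and Nlrc5 did not split this way at 30 weeks: the library without seminal vesicle RNA in each mutant group had 288.7 and 298 RPM of H2-D1, against 242 to 310.0 in the other mutant libraries and 198 to 230.2 in WT. Because the Svs2 levels fall in separate clusters, no correlation is given.

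**Figure D3:**
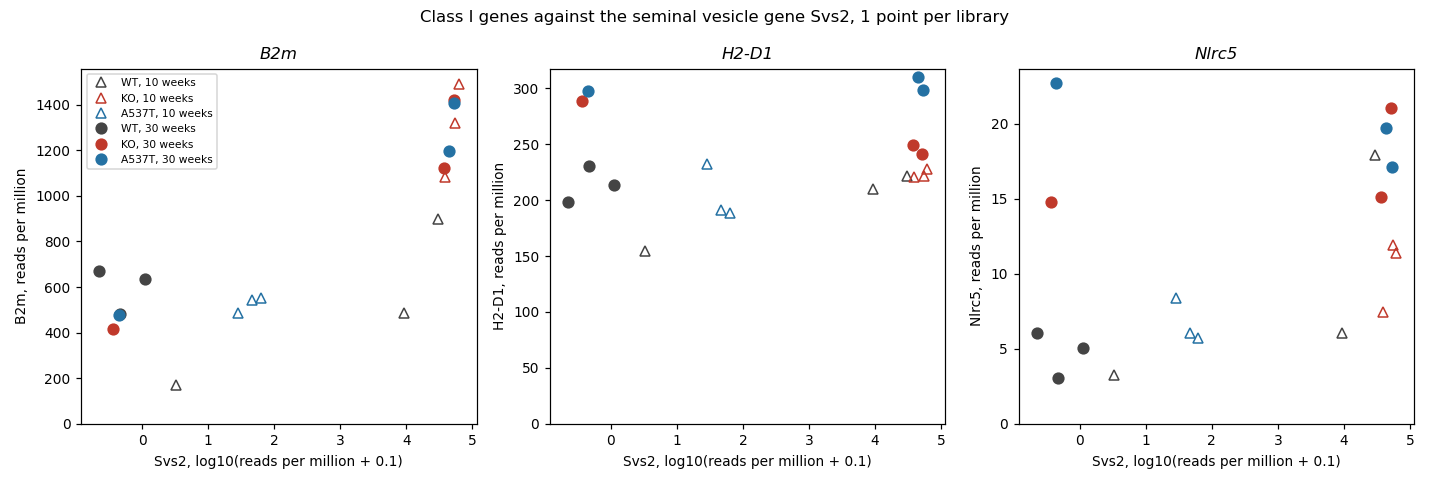
B2m, H2-D1 and Nlrc5 (vertical axes, RPM from 0) against the seminal vesicle gene Svs2 (horizontal axis, log10 of RPM + 0.1), 1 point per library, open triangles at 10 weeks and filled circles at 30 weeks. B2m is at 1081 to 1493 RPM in the mutant libraries at the far right and at 900.6 in WT library 10AF, whereas Nlrc5 at 30 weeks is above WT on both sides of the plot.

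Tap1 and Tap2 form the transporter, and they differed from each other. Tap1 at 30 weeks was 97.3, 88.7 and 115 normalized counts in WT and 133, 163 and 148 in KO. The KO libraries were all above WT, by 0.56 ± 0.16 (SE; limma adjusted p = 0.392). In A537T Tap1 was 142, 202 and 178.5 beside 94.6, 87.2 and 113 in WT. Again no A537T library was within the WT range, at 0.81 ± 0.18 (SE; limma adjusted p = 0.236). Tap2 was 200.2, 170.5 and 175 in WT and 176, 226 and 186 in KO, with 173, 226.5 and 172 in A537T, and these ranges overlapped (0.10 ± 0.14 and 0.06 ± 0.15, SE). At 10 weeks Tap1 was 85.1 to 116 in WT, 80.8 to 110.1 for KO and 90.4 to 134 for A537T, and Tap2 also overlapped between groups. The ratio of Tap1 to Tap2 per exon length was 0.336 to 0.453 in WT at 30 weeks, 0.498 to 0.548 for KO and 0.566 to 0.717 for A537T, with both mutant groups above WT of their age. In the WT libraries at 10 weeks it reached 0.4999. Tapbp differed by no more than 0.19 on the log2 scale in any comparison and its ranges overlapped in all 4.

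The immunoproteasome subunits replace their constitutive counterparts when interferon acts: Psmb8 for Psmb5, Psmb9 for Psmb6 and Psmb10 for Psmb7. At 30 weeks Psmb8 was 97.3, 78.3 and 87.1 normalized counts in WT and 59.0, 110.1 and 61.6 in KO. Only 5AF of the KO libraries exceeded WT, and the difference was -0.24 ± 0.27 (SE). In A537T Psmb8 was 132, 127 and 97.5 beside 96.2, 76.8 and 86.1. All A537T libraries were above WT, the lowest by a narrow margin (97.5 against 96.2), and the difference was 0.45 ± 0.18 (SE; limma adjusted p = 0.349). Psmb9 in A537T was 47.2, 81.0 and 49.3 against 44.1, 29.8 and 44.5 in WT (0.55 ± 0.29, SE), without overlap, and 39.4 to 60.2 in KO against 31.1 to 46.6, with overlap. Psmb10 was 132, 183 and 66.8 in A537T against 97.0, 53.9 and 88.1 in WT (0.60 ± 0.39, SE), with overlap. Library 8AF was the highest A537T library for Psmb9 and Psmb10, and 5AF was the highest KO library for all 3 subunits.

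At 10 weeks the subunits were lower in KO. Psmb8 was 55.8, 30.4 and 48.0 in KO against 69.5, 66.6 and 65.3 in WT, all KO libraries below WT, at -0.62 ± 0.27 (SE; limma adjusted p = 0.264). Psmb9 and Psmb10 differed by -0.48 ± 0.32 and -0.58 ± 0.29 (SE), with overlap. In A537T Psmb8 was 54.3, 52.3 and 59.5 beside 72.5, 68.3 and 67.1 in WT, below without overlap, at -0.32 ± 0.18 (SE; limma adjusted p = 0.752). In RPM, Psmb8 overlapped WT in both lines (3.74 to 7.51 for KO and 6.04 to 7.58 for A537T against 6.30 to 8.67). The constitutive subunits were also lower in KO at 10 weeks, Psmb5 by -0.46 ± 0.18, Psmb6 by -0.47 ± 0.18 and Psmb7 by -0.69 ± 0.23 (SE), each without overlap. Accordingly the ratio of Psmb8 to Psmb5 per exon length was 0.0351 to 0.0703 in KO and 0.0520 to 0.0787 in WT, which overlapped. At 30 weeks this ratio was 0.0851 to 0.0938 in WT, 0.0582 to 0.104 for KO and 0.0903 to 0.122 for A537T. The ratio of Psmb9 to Psmb6 was 0.0283 to 0.0424 in WT, 0.0425 to 0.0492 for KO and 0.0469 to 0.0783 for A537T, so both mutant groups lay above WT, KO by a very narrow margin (0.04251 against 0.04244). Psmb10 to Psmb7 overlapped between all 3 groups.

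**Figure D4:**
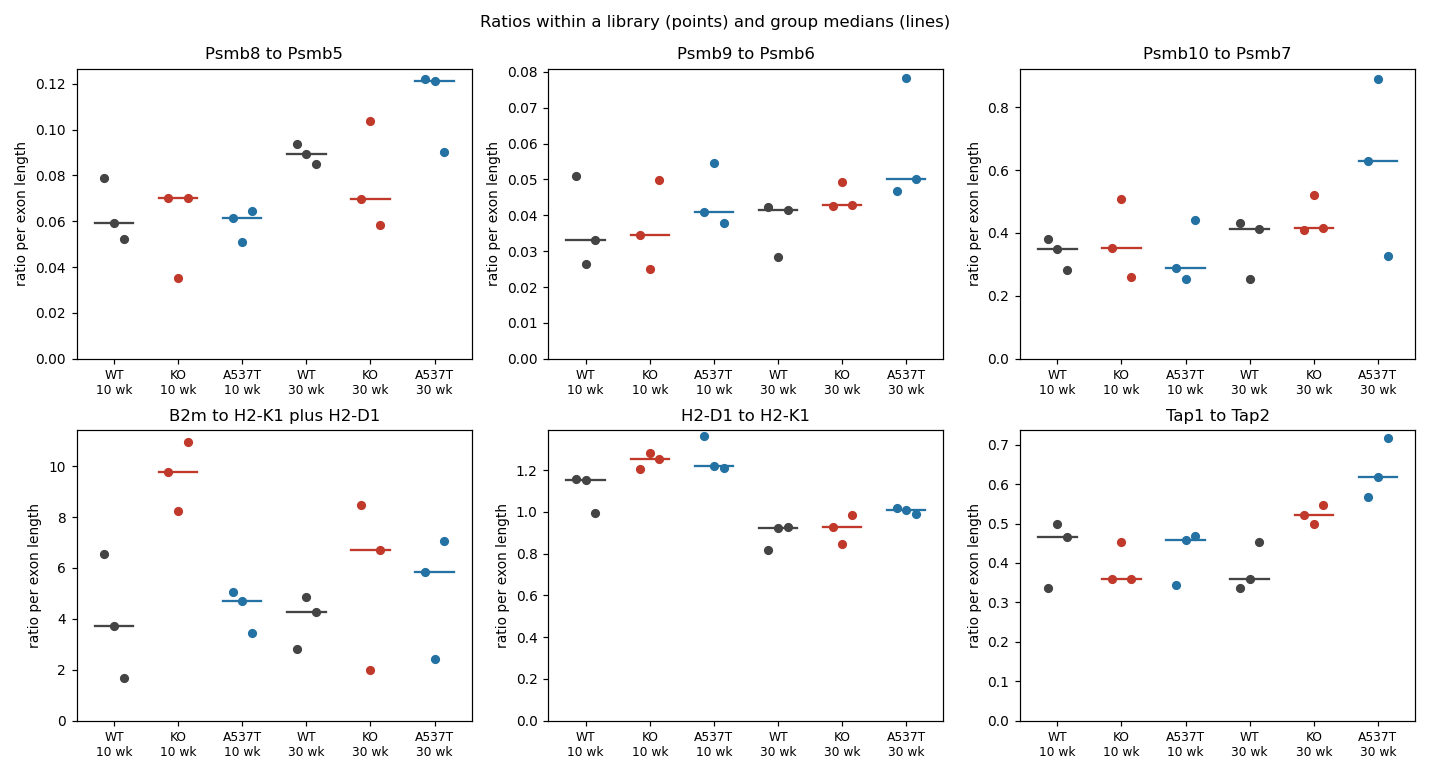
Ratios of 2 genes (or of B2m to 2 heavy chains) within a library, per exon length (vertical axes, from 0), by genotype and age; points are libraries and lines group medians. Tap1 to Tap2 and Psmb9 to Psmb6 lie above WT in both mutant groups at 30 weeks, while B2m to the heavy chains splits within them.

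Nlrc5, the class I transactivator, showed the greatest difference among the 10 genes at 30 weeks. Its normalized counts were 27.3, 56.4 and 44.6 in WT and 200.5, 122 and 143 in KO, with 173, 192 and 159.9 in A537T beside 28.9, 59.6 and 46.5 for WT in that table. The lowest mutant library was above the highest WT library in both lines. The differences were 1.86 ± 0.31 in KO (SE; limma adjusted p = 0.254) and 1.99 ± 0.27 in A537T (SE; limma adjusted p = 0.153). DESeq2 on the recovered reads called Nlrc5 higher in KO (1.88 ± 0.36, SE; adjusted p = 1.08e-04), as 1 member among 1.93% of all genes called, and in A537T (1.98 ± 0.31, SE; adjusted p = 2.40e-07). In A537T DESeq2 also called H2-D1 (0.47 ± 0.11, SE; adjusted p = 0.00151) and Tap1 (0.83 ± 0.25, SE; adjusted p = 0.0276), 3 members in all where 3.19% of genes were called. At 10 weeks it called 0 members, where 4.74% of genes were called in KO and 0.595% in A537T. With the seminal vesicle score as a covariate at 30 weeks, the Nlrc5 difference was 1.63 in KO and 2.18 in A537T. H2-D1 was then 0.30 and 0.38 and Tap1 0.69 and 1.02. These adjusted values rest mainly on 5AF and 8AF against WT, because at that age only the other mutant libraries held seminal vesicle RNA. At 10 weeks Nlrc5 was 144, 51.6 and 33.7 in WT and 88.5, 60.9 and 85.7 in KO, and 51.1, 52.3 and 65.6 in A537T. The spread among WT libraries covered both mutant groups there, with the highest WT value in 10AF.

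The difference between ages was tested directly in each line. The effect at 30 weeks minus that at 10 weeks was above 0 for 8 of the 10 genes in KO and 8 of 10 in A537T, with medians of 0.40 and 0.52 where all genes had 0.03 and -0.00. At an unadjusted p under 0.05 with limma, 4 members were higher in KO (7.13% of all genes) and 5 in A537T (6.18%), and the adjusted p passed for none. With 1 total for all libraries, genes above and below 0 at that p went from 1019 and 705 to 515 and 1170 for KO and from 883 and 841 to 620 and 1002 for A537T, and 7 and 8 members were above 0. Nlrc5 gave 1.58 ± 0.65 in KO and 2.10 ± 0.62 in A537T, H2-D1 0.29 ± 0.12 and 0.50 ± 0.13, Tap1 0.72 ± 0.25 and 0.76 ± 0.28 (SE; limma adjusted p between 0.227 and 0.388). B2m gave -0.82 ± 0.75 in KO and 0.49 ± 0.70 in A537T (SE). The KO and A537T values share all their WT libraries.

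Partners that fold and load class I molecules went another way. Of calreticulin (Calr), calnexin (Canx), Pdia3, the trimming peptidase Erap1 and Tapbpl, 5 of 5 were lower in KO at 30 weeks and 4 of 5 in A537T, with list medians of -0.33 and -0.40, and 3 and 4 of them lay below WT without overlap (8.41% and 9.4% of all genes). Calr was 9262 to 9663 normalized counts in WT of the KO table, 7131 to 7939 in KO and, where WT was 9195 to 9582, 5809 to 8371 in A537T (-0.36 ± 0.10 and -0.47 ± 0.15, SE). Pdia3 was 4518 to 4908 in WT, 3514 to 3728 for KO and 3222 to 3774 for A537T. At 10 weeks 2 of the 5 partners were above WT without overlap in each line (11.7% and 5.58% of all genes). Below WT without overlap were 2 in KO (14.3%) and 1 in A537T (6.34%). Pdia3 was above in both lines (0.49 ± 0.15 and 0.52 ± 0.17, SE). In KO Calr was also above (0.33 ± 0.16, SE), and Erap1 and Tapbpl were below (-0.54 ± 0.19 and -0.20 ± 0.16, SE). Calr, Canx and Pdia3 serve secreted proteins in general. In these partners, and in the lists that follow, 0 genes passed the adjusted test with limma or edgeR, and at an unadjusted p under 0.05 with limma 0 partners were higher at 30 weeks, while 2 were lower in the KO and 4 in the A537T comparison (5.41% and 6.28% of all genes).

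Among 16 other class I and class I-like heavy chain genes, 13 passed the minimum mean in KO and 14 in A537T at 30 weeks. Of these 8 were higher in each line, 6 and 7 without overlap (7.92% and 9.18% of all genes), and the medians were 0.24 and 0.47. The 4 most abundant of the list, H2-T23, H2-Q10, H2-T22 and Mr1, were not the ones that differed most upward: H2-T23, which presents leader peptides of other class I chains, differed by 0.24 ± 0.15 and 0.35 ± 0.18 (SE), and H2-Q10, a secreted form, by -0.61 ± 0.11 and -0.66 ± 0.46 (SE). The greatest differences, named after their values were seen, were in the Qa genes. H2-Q6 was 23.3 to 33.7 normalized counts in WT, 65.2 to 74.2 for KO and 77.1 to 89.4 for A537T (1.29 ± 0.22 and 1.59 ± 0.21, SE). H2-Q7 differed by 1.01 ± 0.21 and 1.32 ± 0.17 and H2-Q4 by 0.73 ± 0.14 and 0.80 ± 0.16 (SE), all without overlap (limma adjusted p between 0.153 and 0.331). H2-Q6 and H2-Q7 are near-identical copies, so their values are uncertain one by one. At 10 weeks these 3 overlapped WT in both lines. At an unadjusted p under 0.05 with limma, 4 genes of the list were higher (5.56% of all genes) and 1 lower (5.41%) in KO at 30 weeks, and 5 were higher (7.35%) and 0 lower (6.28%) in A537T.

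The factors that bind class I promoters were centred near 0. Of 14 genes, 8 were higher in KO and 7 in A537T at 30 weeks, with medians of 0.01 and 0.00, and 2 were lower in KO (5.41% of all genes) and 1 higher in A537T (7.35%) at an unadjusted p under 0.05 with limma. Rfx5, a subunit of the complex that Nlrc5 contacts, differed by 0.23 ± 0.32 and 0.30 ± 0.22 and Irf1 by 0.18 ± 0.26 and 0.17 ± 0.15 (SE), with overlap. Nfkb1, Creb1 and Ctcf overlapped WT in both lines at 30 weeks, as did Irf2. Of the 15 interferon signalling genes, Ifng was at 0 in 17 libraries and at 0.0891 RPM in 5AF, and Ifnb1 was at 0 in all 18. Jak1 and Stat3 overlapped or were lower, Jak2 differed by 0.45 ± 0.12 and 0.39 ± 0.18 (SE), and Stat2 by -0.47 ± 0.14 in KO and 0.04 ± 0.15 in A537T (SE). Irf9, named after its values were seen, was 165 to 190.0 in WT and 402 to 428 in A537T (1.22 ± 0.11, SE; limma adjusted p = 0.137), and in KO it was 178 to 411 against 164 to 188, with overlap (0.73 ± 0.29, SE; adjusted p = 0.438). The medians of the interferon list were 0.06 in KO and 0.04 in A537T, and 4 genes were higher (5.56% of all genes) and 1 lower (5.41%) in KO and 3 higher (7.35%) and 0 lower (6.28%) in A537T at an unadjusted p under 0.05 with limma. Proteasome counterparts, activators and assembly factors had medians of -0.06 and 0.06 at 30 weeks, and Psme3, the nuclear activator, named after its values were seen, was lower in both lines (-0.44 ± 0.14 and -0.35 ± 0.14, SE), without overlap.

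**Figure D5:**
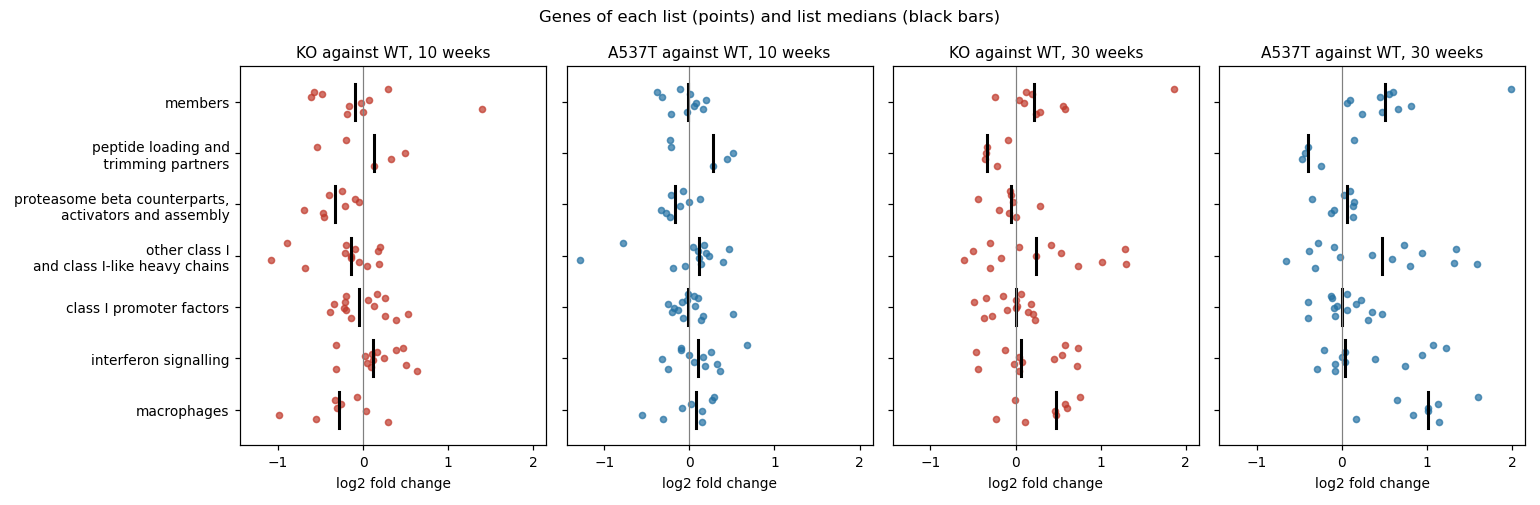
Log2 fold change from limma (horizontal axis) of each tested gene of the class I members, 5 related lists and the macrophage markers, in the 4 comparisons; points are genes and black bars list medians. At 30 weeks the members (0.22 and 0.51), the other heavy chains (0.24 and 0.47) and macrophage markers (0.47 and 1.01) have medians above 0 and the loading partners (-0.33 and -0.40) below it.

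The 6 genes of the leukocyte list were all above WT in mean log2 level in each line at 30 weeks, 4 of them without overlap (7.92% and 9.18% of all genes), and 0 passed the adjusted test with limma or edgeR (3 in KO and 5 in A537T at an unadjusted p under 0.05 with limma, beside 5.56% and 7.35%). Ptprc, the pan-leukocyte gene CD45, was 105 to 124 normalized counts in WT and 205 to 252 in KO (0.99 ± 0.14, SE; limma adjusted p = 0.214), and 185 to 286 in A537T (1.03 ± 0.19, SE; adjusted p = 0.182). It was above WT without overlap in both lines at 30 weeks and overlapped WT in both at 10 weeks. The leukocyte list summed at 30 weeks to between 33.8 and 47.9 RPM in WT, between 74.3 and 583 in KO and between 92.2 and 751 in A537T. Cd52 made most of the high sums and was high in the libraries with seminal vesicle RNA (415 to 704 RPM in 4AF, 6AF, 7AF and 9AF, and 5.59 to 7.84 in 5AF and 8AF). Without Cd52, left out after its values were seen, the other 5 genes summed to 31.3 to 32.1 in WT, 44.9 to 66.5 for KO and 47.0 to 86.6 for A537T, and to 22.5 to 53.0 in the 10-week groups. Macrophage markers were higher for 6 of 8 genes in KO and 8 of 8 in A537T, and summed to 90.9 to 103.9, 90.8 to 179 and 128 to 279 RPM in WT, KO and A537T, so the KO sums overlapped WT. C1qa, below Mrc1 and Csf1r in abundance, was 122 to 150 normalized counts in WT, 141 to 241 for KO and 187 to 394 for A537T. Jchain, a plasma cell gene, was 218 to 602 normalized counts in A537T against 53.7 to 102 in WT and 53.6 to 69.8 in KO. The 12 T and NK cell markers summed to 4.83 to 6.79, 5.95 to 10.9 and 7.67 to 11.1 RPM, with Cd3e at no more than 1.71 and Cd8a at no more than 0.939 in any library. The 5 dendritic cell markers summed to 7.00 to 15.6 over the 30-week groups, with overlap. The macrophage markers went the other way in KO at 10 weeks, where 6 of 8 were lower and the median was -0.28. Of these, 3 lay below WT without overlap (14.3% of all genes). Csf1r differed most (-0.99 ± 0.39, SE), and C1qa overlapped WT. In A537T at that age 5 of 8 were higher, all with overlap, and the median was 0.08. The part of leukocytes of any kind in the class I values was not tested.

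The genes whose levels over the 18 libraries were most like the mean of the 10 members were sought among 9989 genes with at least 50 normalized counts on average in every table. The 10 nearest were H2-Aa (Pearson r = 0.967), Cd74 (0.9502), H2-Eb1 (0.933), Ptprc (0.924), Ctss (0.911), H2-Ab1 (0.905), Parp14 (0.898), Mpeg1 (0.888), Rapgef3 (0.859) and Khdc4 (0.856). H2-Aa, H2-Eb1 and H2-Ab1 encode MHC class II chains, and Cd74 is their invariant chain. These points are libraries that share age groups, dissection and depth, so the r values are descriptions. H2-Aa was 223 to 268 normalized counts in WT at 30 weeks, 466 to 487 for KO and 424 to 822 for A537T. Within the 10, H2-D1 was most like the mean of the other 9 (r = 0.9599) and B2m least (r = 0.179), with H2-K1 at 0.772, Tap1 at 0.749 and Nlrc5 at 0.725.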

How the data were processed

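RNA sequencing data of 18 mouse prostate libraries were analysed from 4 tables, one for each mutant line and age with the WT of that age. Per the labels and the study's methods, the authors trimmed reads with Trim Galore 0.4.1 and cutadapt 1.18, aligned them to GRCm38.p6 with STAR 2.7.3a, quantified genes of GENCODE vM24 with Salmon in its stranded setting, and divided the estimated counts by DESeq2 1.26 size factors. The deposited values are therefore a normalized signal, in which at least 99.99% of values above 0 are whole multiples of 1 read (tolerance 0.1 read), and the reads recovered in this way gave the depth. Depth limits precision for the low genes. Other deposited tables hold the authors' fold changes, shrunken by apeglm, with s-values, and were not used. Column names give neither groups nor replicate numbers. Each table was tied to its mutant and age because its row means equal the mean column of the study's own results for that comparison, and libraries in both tables of an age are WT.

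Genes whose normalized counts averaged 10 or more in a table were tested with limma 3.58.1 (R 4.3.3) on log2(normalized count + 1) with a mean trend, and p-values were adjusted over all of them by the Benjamini-Hochberg method (threshold 0.05). Fold changes on this scale are understated for low genes. The change of an effect between ages was tested in 1 model of the 12 libraries of a line. The scripts were tested on simulated data. Alternatives were pseudocount 8, no minimum mean or a minimum of 100, no mean trend, quantile normalization, 1 total for all libraries, leaving out each library, a muscle or seminal vesicle score as covariate (the latter at 10 weeks was added after seeing the data), edgeR 4.0.16 and DESeq2 1.42.0 on recovered reads. RPM values divide a value by its library's total, with WT taken from the KO table. Per-length values use the merged length of all exons annotated for a gene in GENCODE vM21, such as 3660 bases for Psmb9 and 1705 for Psmb10. The size of a ratio between genes depends on these lengths, while its comparison between libraries does not. Exact gene IDs without versions matched vM21 for 55107 of 55469 genes. Promoter windows are RefSeq's. The rule for named genes took all 10 members, the 4 most abundant genes of each list, Psmb5, Psmb6, Psmb7, Irf1, Rfx5, Ifng, Ptprc, Cd3e and Cd8a, and the 10 genes most like the members. One further gene of the rule is not reported here. Others are said to be named after their values were seen. The members and lists were chosen with earlier results of these data known. Per the study's methods a group's 3 libraries are biological replicates, from 3 mice of each line, and p-values measure the spread between them.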

Additional observations from a re-analysis of the deposited data

Results flagged for a closer look

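The 4 age differences were singled out because in them all mutant libraries lay on opposite sides of the WT mean at the 2 ages. With the deposited values H2-K1 was below it at 10 weeks and above it at 30 weeks in both lines. The difference of the effects was 0.42 ± 0.15 in KO and 0.45 ± 0.16 in A537T (SE; limma adjusted p = 0.323 and 0.309). In RPM, however, KO libraries 13AF and 15AF (209 and 207) and A537T library 18AF (219) lay above the WT mean of 201 at 10 weeks. In A537T the deposited values of Psmb8 also went from below to above the WT mean, with a difference of 0.77 ± 0.23 (SE; limma adjusted p = 0.268). Those of Nlrc5 did so too, with 2.10 ± 0.62 (SE; limma adjusted p = 0.263). None passed the adjusted test. The Nlrc5 libraries of A537T at 10 weeks lay within the WT range (32.0 to 139.8 normalized counts). Their place below the WT mean rests on WT library 10AF, at 139.8 beside 49.3 in 11AF and 32.0 in 12AF. Without 10AF the A537T difference at 10 weeks was 0.48.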

How the results depend on the processing

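No paired analysis was possible because the table columns carry no replicate numbers. With limma 0 genes were called in any comparison, and other settings called 1 (no mean trend) or 715 (DESeq2) for KO at 10 weeks, 2 (no minimum mean), 2 (no mean trend) or 90 (DESeq2) for A537T at 10 weeks, 285 (DESeq2) for KO at 30 weeks, and 3 (seminal vesicle score) or 472 (DESeq2) for A537T at 30 weeks. At 30 weeks DESeq2 called 1 member in KO and 3 in A537T. Leaving out 1 library gave 0 to 2886 genes for KO and 0 to 50 for A537T at 10 weeks, and 0 to 944 for KO and 0 to 1224 for A537T at 30 weeks, with 0 to 1 member for KO at 10 weeks, 0 to 2 for KO and 0 to 3 for A537T at 30 weeks. The highest counts came without 10AF at 10 weeks and without 5AF or 8AF at 30 weeks. Age differences gave 0 to 30 genes for KO and 0 to 390 for A537T. The cause was not tested.

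The median of the members was 0.12 for KO at 10 weeks with 1 total for all libraries, -0.23 for A537T at 10 weeks with the muscle score, and 0.32 for KO at 30 weeks with the seminal vesicle score. Without single libraries it was 0.092 to 0.31 for KO and 0.35 to 0.55 for A537T at 30 weeks, the lowest without 5AF and 8AF. For the age difference it was 0.12 (minimum mean 100, which only 5 members passed) and 0.18 (1 total) in KO, and 0.46 to 0.65 without single libraries in A537T. Fits with the seminal vesicle score at 30 weeks rest mainly on 5AF and 8AF against WT.

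Of the 957 member values under alternatives, 62 had the opposite sign, 10 passed the threshold and 885 kept sign and side. The values of opposite sign were as follows. For KO at 10 weeks, 1 total for all libraries gave H2-K1 0.027, H2-D1 0.21, Tap1 0.049 and Tap2 0.19, quantile normalization gave H2-D1 0.17 and Tap2 0.042, DESeq2 gave H2-D1 0.00798, edgeR gave H2-D1 0.0069, the muscle score gave H2-D1 0.047, Tap1 0.24, Tap2 0.025, Tapbp -0.0084, Psmb10 0.22 and Nlrc5 -0.50 and the seminal vesicle score gave Tapbp -0.066 and Nlrc5 -0.32. For A537T at 10 weeks, 1 total for all libraries gave H2-D1 0.11 and Nlrc5 0.023, quantile normalization gave H2-D1 0.027 and Psmb9 -0.032, DESeq2 gave B2m -0.051, edgeR gave B2m -0.052 and Psmb9 -0.0063, the muscle score gave B2m -0.61, Tap1 -0.072 and Tap2 -0.097 and the seminal vesicle score gave Psmb9 -0.044 and Nlrc5 0.049. For KO at 30 weeks, the seminal vesicle score gave B2m -0.50 and Psmb8 0.27. For A537T at 30 weeks, the seminal vesicle score gave B2m -0.26. For the KO age difference, 1 total for all libraries gave Tap2 -0.095. Without single libraries, KO at 10 weeks ranged over H2-D1 -0.052 to 0.0298, Tap2 -0.059 to 0.029, Tapbp -0.017 to 0.12 and Nlrc5 -0.16 to 0.87, A537T at 10 weeks ranged over B2m -0.38 to 0.64, Tap1 -0.12 to 0.16, Tap2 -0.015 to 0.20, Psmb9 -0.21 to 0.13 and Nlrc5 -0.56 to 0.48, KO at 30 weeks ranged over Tap2 -0.0049 to 0.18, Tapbp -0.049 to 0.12 and Psmb10 -0.13 to 0.29, A537T at 30 weeks ranged over Tap2 -0.074 to 0.13, the KO age difference ranged over Tapbp -0.11 to 0.052 and the A537T age difference ranged over Tap2 -0.15 to 0.072. At 30 weeks Nlrc5, H2-D1, H2-K1 and Tap1 kept their direction in both lines under every alternative run.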
